A study of Rattus norvegicus with 9 samples.

Results

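The question was how the messenger RNA of rat cortical neurons moved between 15 min and 45 min after activity was allowed to return. The comparison used 6 of the 9 single-colour arrays of the series, picked by sample title: 3 of neurons collected 45 min after washout (W45) and 3 of neurons collected 15 min after it (W15). Every culture was made from dissociated cortices of prenatal rats, grown in Neurobasal medium to which B27 or NS21 had been added, used at 11 to 15 days in culture, and kept for 48 h in tetrodotoxin (TTX). W15 and W45 neurons were then freed of the toxin by 3 washes in regular medium, and the other 3 arrays were of neurons still in TTX, which serve as the starting level. W15 and W45 thus share the earlier silencing and the washes, and the labels give time as the only difference. The labels do not say whether the 3 replicates of a group were separate cultures, so each p measures only the spread between these samples, which may be technical.

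As background, TTX closes the sodium channels that carry the action potential and thereby silences neurons. When firing returns, calcium entry and the ERK kinases act on factors already bound at promoters, among them CREB at CRE sites and SRF at CArG boxes, and immediate early genes are transcribed without new protein synthesis. Some of these genes encode transcription factors (the Fos, Jun, Egr and Nr4a families and Npas4), others encode proteins that act at synapses or outside the cell, and others, such as the Dusp phosphatases, limit the signal that induced them.

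The value analysed was the log2 processed spot signal minus the 75th percentile of its array, so that 0 is the level of that percentile and a difference of 1 is a factor of 2. Of the probes, 72.4 to 77.9% per array stood well above background, 25785 genes or other features were tested, and arrays of a group correlated at 0.984 to 0.996. Array against array within a group, the log2 values differed with an SD of 0.407 to 0.416 in W15 and 0.515 to 0.603 in W45. The 4 arrays of slide 3 were W45 replicates 2 and 3 with W15 replicates 1 and 2; W45 replicate 1 and W15 replicate 3 were on slide 1, as was TTX replicate 1. Probes printed in 10 spots had a median log2 SD of 0.252 and 0.26 on W45 replicates 2 and 3 against 0.042 on W45 replicate 1, and the part of this wider scatter in the results was not tested. The cell type label is mature neurons: all 9 pan-neuronal markers stood above background on every array, and their summed linear level ran from 249 to 324 times the 75th percentile signal. The summed level of 9 astrocyte markers ran from 91.6 to 118 and that of 9 microglial markers from 0.287 to 0.485. That of 5 oligodendrocyte precursor markers ran from 45.9 to 57.2, and that of 7 proliferating progenitor markers from 35.3 to 47.2. Neither astrocyte nor microglial markers included a gene called between the times.

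Between 15 and 45 min many immediate early genes climbed. With limma and an adjusted p under 0.05, 31 of the 25785 features were higher at 45 min (0.12%) and 3 were lower (0.0116%). The 28 of the 31 that carried a gene symbol included Nr4a1, Arc, Npas4, 3 Egr genes, Dusp1, Btg2, Klf4 and Bdnf, and 14 of the 31 rose more than 4-fold and 7 more than 8-fold. In all 34 called features the W45 arrays did not overlap the W15 arrays, a pattern that 3.93% of all features showed in the higher and 4.18% in the lower direction. All 31 rises had the same direction on slide 1 (1 array per time) and on slide 3 (2 arrays per time). The lack of overlap fixes this in advance, so it adds no separate support. The median difference over all features was -0.00. In bulk cultures fewer cells with a transcript and less of it per cell cannot be told apart. With 3 arrays per group precision was limited: the median SE of a difference was 0.19.

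Of the 31, 17 were called in each of the 9 fits that left out 1 array: Nr4a1, Arc, Ccn1, Edn1, Egr4, Egr2, Ch25h, Dusp1, Btg2, Klf4, Bdnf, Egr1, Rasl11a, Dusp5, Gadd45g and 2 features with no symbol. The count of higher features moved by more than 1.5 times without TTX replicate 2 (20 features), W15 replicate 1 (18), W15 replicate 2 (19), W45 replicate 1 (57 features) or W45 replicate 2 (18). Without W45 replicates 2 and 3 together it was 17, and 13 of these were among the 31. With slide 3 alone no feature was called, while 796 were higher and 1251 lower at an unadjusted p under 0.05 in limma. Normexp background correction, which subtracts the local background by another model, kept 15 calls: those of Nr4a1, Arc, Ccn1, Npas4, Egr4, Egr2, Egr1, Dusp1, Dusp5, Btg2, Klf4, Bdnf, Rasl11a, Gadd45b and Gadd45g.

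**Figure D1:**
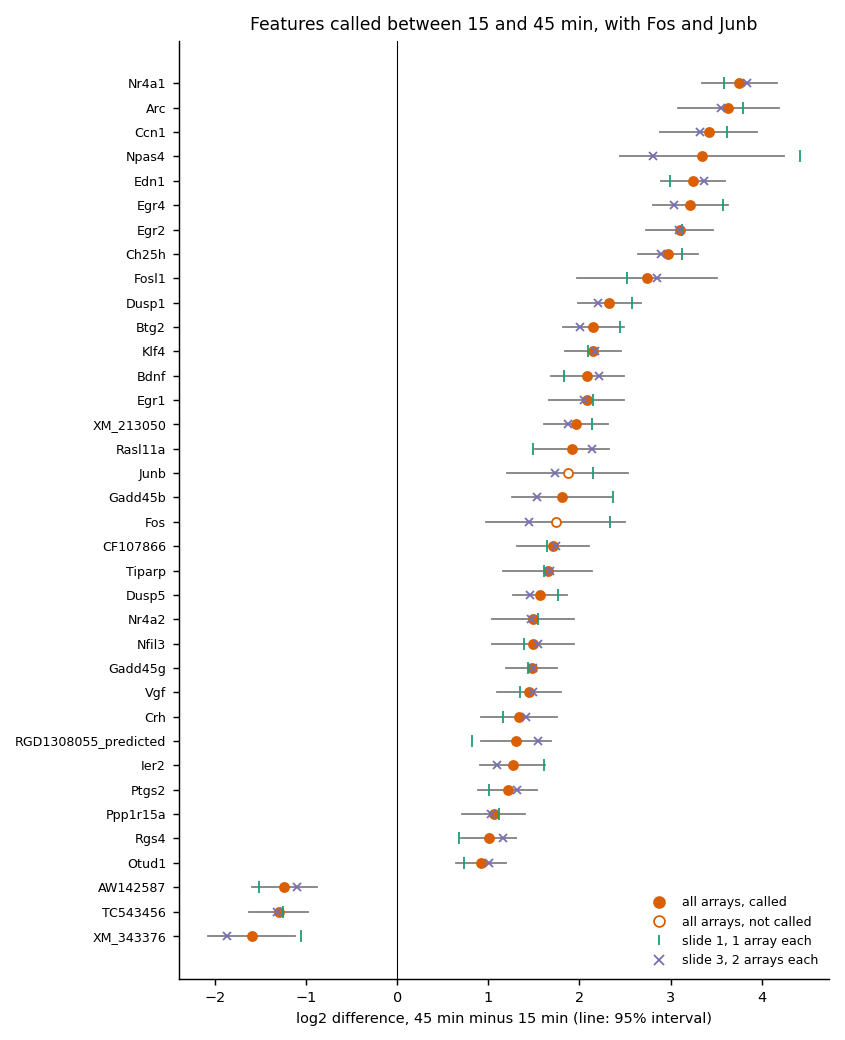
Log2 difference between 45 and 15 min for the 34 called features and for Fos and Junb, which were not called. Circles are the fit over all arrays with its 95% interval. Ticks are slide 1 (1 array per time) and crosses slide 3 (2 arrays per time). For every feature all 3 lie on the same side of 0, which must be so where W45 and W15 arrays do not overlap.

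Transcription factors formed the largest called group by number, together with the effectors. Of 29 immediate early transcription factor genes tested, 10 rose and none fell (0.12% and 0.0116% of all features), 24 had W45 arrays wholly above the W15 arrays against 3.93% of all features, and the median difference was 0.98. With quantile scaling the list's median stood 0.996 above that of all features. Scaling to the median of all probes, or none, shifts every feature alike and so could not change this distance. Normexp background correction moved the median of all features to -0.19. The list then stood 0.83 above it, and a list of 15 reference genes stood 0.33 above it.

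Nr4a1, an orphan nuclear receptor of the immediate early class, showed the largest rise of any gene. Its log2 signal was 1.97, 1.48 and 1.43 in TTX, 2.19, 1.86 and 2.18 at 15 min, and 5.77, 6.02 and 5.70 at 45 min. The W15 arrays lay barely above the TTX arrays and overlapped them, whereas every W45 array was far above both. The rise from 15 to 45 min was 13.5-fold (log2 3.75 ± 0.18, SE, limma adjusted p = 4.97e-05). Nr4a2, a related receptor, read -1.46, -1.03 and -0.82 at 15 min and 0.72, 0.21 and 0.24 at 45 min, a log2 rise of 1.49 ± 0.20. Its adjusted p was 0.0279, and it lost the call without any of the 3 TTX arrays, W15 replicate 1 or 2, or W45 replicate 2 (adjusted p 0.0668 to 0.151). Nr4a3 was not called (0.53).

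The Egr genes encode zinc finger factors that bind GC-rich sites. Egr1 rose in 2 nearly equal log2 steps: 0.47, 0.75 and 1.04 in TTX, 2.75, 3.13 and 2.73 at 15 min, and 4.88, 5.14 and 4.83 at 45 min. The 3 groups did not overlap. The first step was 2.11 (adjusted p = 0.00681) and the later one 2.08 ± 0.18 (adjusted p = 0.0018), or 4.23-fold. Egr4 went from 1.82, 1.84 and 1.93 at 15 min to 5.51, 4.79 and 4.95 at 45 min, a 9.31-fold rise (log2 3.22 ± 0.18, adjusted p = 0.00012). Egr2 went from -0.86, -0.63 and -0.60 to 2.52, 2.57 and 2.12, an 8.57-fold rise (log2 3.1 ± 0.16, adjusted p = 7.09e-05). Egr3 was not called: its means at 15 and 45 min lay 0.54 apart (95% interval 0.10 to 0.97, adjusted p = 0.742), and whether this differs from its relatives was not tested. Its signal was low, between -5.47 and -4.55 on all 6 washed arrays, and its sign turned under normexp correction (-0.19).

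Npas4, a neuron-specific factor that responds to calcium entry, started from the lowest level. None of its TTX arrays stood well above background (-8.58, -8.36 and -8.63). At 15 min it read -3.09, -1.75 and -3.61, and at 45 min 0.81, 0.56 and 0.21, so that each group stood clear of the others while the W15 arrays were spread over nearly 2 log2 units. The signal was at least 19.7-fold above the TTX background limit at 15 min and at least 200-fold above it at 45 min, with measured mean differences of 5.71 and 9.05. The rise between the washed groups was 10.2-fold (log2 3.34 ± 0.40, adjusted p = 0.0168). It was 4.42 on slide 1 and 2.81 on slide 3, and the call was lost without W15 replicate 1 (adjusted p = 0.112) or W45 replicate 2 (adjusted p = 0.109).

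Fos and Junb, subunits of the AP-1 factor, had most of their log2 rise behind them at 15 min. Fos read -3.06, -2.92 and -2.52 in TTX, 1.58, 2.72 and 1.80 at 15 min, and 4.14, 4.0 and 3.18 at 45 min. Every W45 array lay above every W15 array, but the nearest pair was close (3.18 against 2.72). The difference was 1.74 (95% interval 0.98 to 2.5), and its adjusted p of 0.192 missed the threshold. Junb read -0.27, 0.37 and 0.03 at 15 min and 2.17, 2.38 and 1.18 at 45 min, a difference of 1.87 (95% interval 1.20 to 2.54, adjusted p = 0.0743). Neither gene met the rule for a plateau, since both intervals lay above a 1.5-fold change. Fosl1, another Fos family member, was called: it went from -5.63, -4.54 and -4.72 to -2.19, -2.02 and -2.44, a rise of 2.74 ± 0.34 (adjusted p = 0.0209). That call was lost without TTX replicate 2, any W15 array or W45 replicate 2 (adjusted p 0.0535 to 0.147). Fosl2 (1.20), Jun (0.66), Jund (0.42) and Fosb (0.38) were not called.

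**Figure D2:**
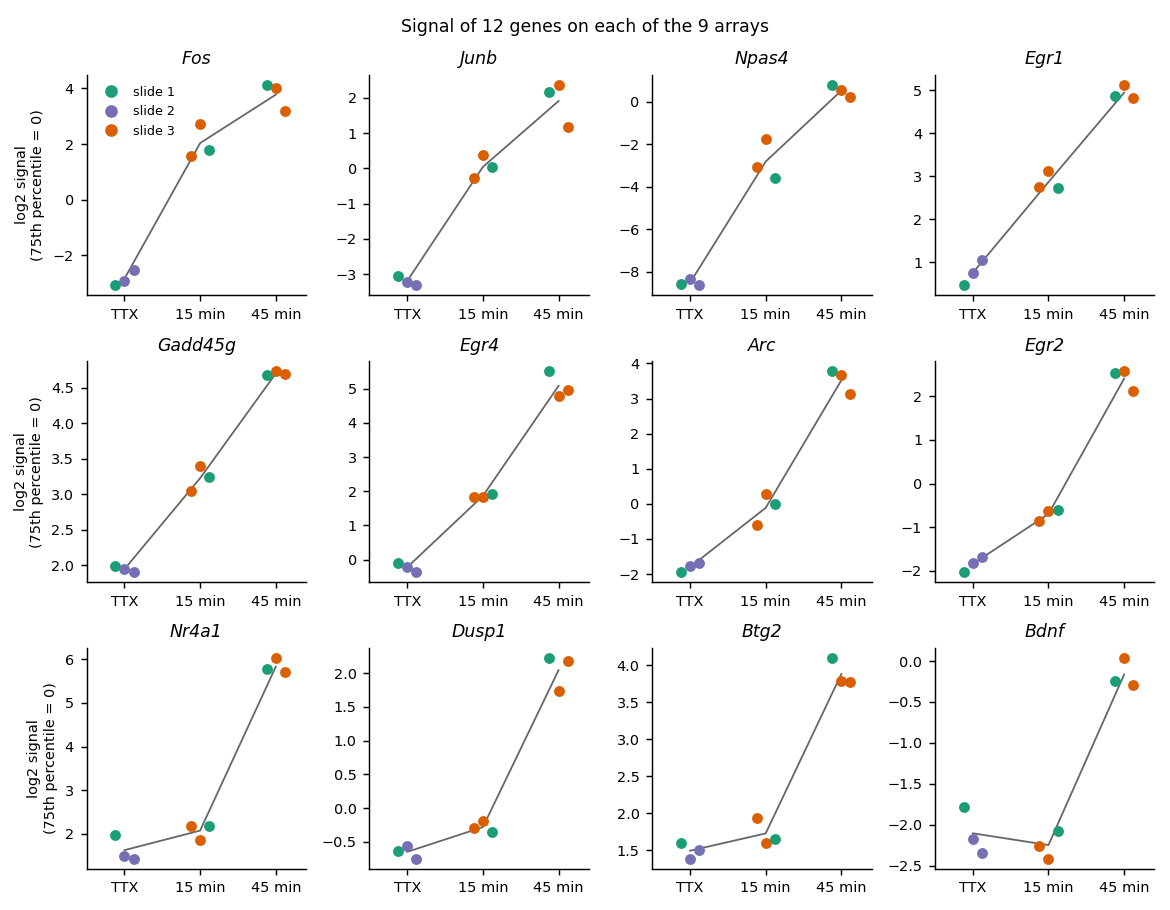
Log2 signal of 12 genes on each of the 9 arrays, with 0 at the array's 75th percentile. Points are arrays coloured by slide and lines join the group means. On this log2 scale Fos, Junb and Npas4 gain more before 15 min than after it, and Egr1 gains nearly equally. Nr4a1, Dusp1, Btg2 and Bdnf gain nearly everything after 15 min.

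The other called factors were Klf4, Nfil3 and Ier2. Klf4, a zinc finger factor of the Kruppel-like family, was level until 15 min (-0.53, -0.65 and -0.59, against -0.86, -0.74 and -0.54 in TTX) and then read 1.51, 1.73 and 1.43. The rise was 4.42-fold (log2 2.14 ± 0.14, adjusted p = 0.000244). Nfil3, a basic leucine zipper repressor, rose by 1.49 ± 0.20 and Ier2, an immediate early nuclear protein, by 1.27 ± 0.16. Both calls were fragile: without any TTX array, any W15 array or W45 replicate 2, Nfil3 had adjusted p values of 0.0539 to 0.159 and Ier2 of 0.0555 to 0.126. Ier2 was bright on every array (3.78, 4.0 and 3.83 at 15 min, and 5.44, 5.08 and 4.89 at 45 min), with no overlap. Maff (1.56, adjusted p = 0.0723), a small Maf protein, fell short of the threshold.

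Effector genes were the other large group. Of 25 tested, 10 rose and none fell (0.12% and 0.0116% of all features), 15 had W45 arrays wholly above the W15 arrays (3.93% of all features), and the median difference was 0.59. Under normexp correction the effectors stood 0.71 above the median of all features, and reference genes 0.33 above it. Arc, whose protein acts in the removal of AMPA receptors from synapses, read -1.94, -1.77 and -1.70 in TTX, -0.61, 0.29 and -0.02 at 15 min, and 3.77, 3.66 and 3.12 at 45 min. Its W15 arrays already lay above all TTX arrays and its W45 arrays were more than 2 log2 units higher again. The later rise was 12.4-fold (log2 3.63 ± 0.25, adjusted p = 0.000319), against 3.22-fold in the first 15 min, which was not called (adjusted p = 0.187). The Arc probe lies at chr7:112806255-112806314 on the minus strand of the rn3 build and was averaged over 10 spots.

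Of 21 growth factors, cytokines and secreted signals tested, 4 rose and none fell (0.12% and 0.0116% of all features). Their median difference was -0.05, and 9 of the 21 had a difference above 0. Ccn1 and Edn1 encode secreted proteins, a matricellular protein and the vasoactive peptide endothelin-1. Ccn1 rose from -2.34, -2.48 and -3.12 to 0.50, 0.76 and 1.06, 10.7-fold (log2 3.42 ± 0.23, adjusted p = 0.000319), and its other probe rose by 2.85. Edn1 was not well above background on any W15 array (-7.13, -7.39 and -7.20) and was so on all W45 arrays (-4.21, -3.89 and -3.88). Its rise was at least 8.16-fold over the background limit, with a fitted difference of 3.25 ± 0.16 (adjusted p = 4.97e-05). At this signal the result depends on the background correction: under normexp the difference was 0.52 and was not called. Ch25h, the enzyme that makes 25-hydroxycholesterol, was also dim, reading -4.91, -4.81 and -4.92 at 15 min and -1.79, -1.80 and -2.12 at 45 min. The 3 arrays of each time lay close together, and the rise was 7.87-fold (log2 2.98 ± 0.15, adjusted p = 4.97e-05), a call that normexp correction also ended (adjusted p = 0.404).

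Gadd45b and Gadd45g, stress sensors linked to DNA demethylation, both rose. Gadd45g was among the tightest genes, with 3.04, 3.39 and 3.25 at 15 min and 4.68, 4.73 and 4.69 at 45 min, 2.78-fold (log2 1.47 ± 0.13, adjusted p = 0.00144). Gadd45b rose 3.50-fold (log2 1.81 ± 0.24, adjusted p = 0.0279), and the call was lost without any TTX array, W15 replicate 1 or 3, or W45 replicate 2 (adjusted p 0.0647 to 0.180). Rasl11a, a small GTPase of the Ras family, rose 3.78-fold (log2 1.92 ± 0.18, adjusted p = 0.00272). Tiparp, an ADP-ribosyltransferase, rose by 1.65 ± 0.22 on its brightest probe, while its other probes rose by 1.05 and 1.85 and were not called. The Tiparp call was lost without any TTX array, any W15 array or W45 replicate 2 (adjusted p 0.0559 to 0.148).

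Feedback genes rose in part. Dusp1, a nuclear phosphatase that inactivates MAP kinases, read -0.29, -0.19 and -0.36 at 15 min and 2.22, 1.74 and 2.18 at 45 min, 5.01-fold higher (log2 2.33 ± 0.15, adjusted p = 0.000313). Dusp5, which acts on ERK in the nucleus, read 0.27, 0.40 and 0.27 and then 2.04, 1.88 and 1.72, 2.96-fold higher (log2 1.56 ± 0.13, adjusted p = 0.00144). In both genes the lowest W45 array stood more than 1 log2 unit above the highest W15 array. Of 14 MAP kinase phosphatases and ERK inhibitors tested, these 2 were called (all features 0.12%) and 8 had non-overlapping higher arrays (all features 3.93%). Among the 8 were Dusp6 (1.39, adjusted p = 0.0918), the cytoplasmic ERK phosphatase, and Spry1 (1.10, adjusted p = 0.0619). The median of the 14 was 0.45, and it was 0.24 without W45 replicates 2 and 3. Under normexp correction the median of the 14 was 0.02. This lay 0.21 above the median of all features, less than the 0.33 of a list of 15 reference genes.

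Btg2, which promotes the removal of poly(A) tails, was the called member of 15 mRNA decay regulators (0.12% of all features rose). The median difference of the 15 was 0.13, and 3 had non-overlapping higher arrays, against 3.93% of all features. Btg2 read 1.94, 1.60 and 1.65 at 15 min and 4.09, 3.78 and 3.77 at 45 min, with no overlap, 4.45-fold higher (log2 2.15 ± 0.15, adjusted p = 0.000319). The poly(A) polymerases Tent5b (1.39) and Tent5a (1.21) of the same list were not called, nor was Zfp36l1 (-0.65). Rgs4, which shortens Gq and Gi signalling, was the called member of 12 cAMP and CREB feedback genes (0.12% of all features rose), whose median difference was 0.16. It rose 2.0-fold (log2 1.0 ± 0.13, adjusted p = 0.0279), and lost the call without any TTX array, W15 replicate 1 or 2, or W45 replicate 2 or 3 (adjusted p 0.0536 to 0.172). The kinase Sik1 had a larger difference (1.33) but wide W45 values, 2.95, 4.03 and 4.34, and was not called (adjusted p = 0.430).

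Of 24 genes usually classed as late-response, 5 rose and none fell (0.12% and 0.0116% of all features), 19 were not called, and the median was 0.22. At an unadjusted p under 0.05, 9 were higher and 1 lower. Bdnf, the neurotrophin that supports synapse growth, read -1.79, -2.18 and -2.35 in TTX, -2.26, -2.42 and -2.07 at 15 min, and -0.24, 0.03 and -0.29 at 45 min. TTX and W15 overlapped fully and all W45 arrays were higher. The rise was 4.24-fold (log2 2.08 ± 0.18, adjusted p = 0.00144), and the other Bdnf probe, averaged over 10 spots, rose by 2.69. Vgf, a neurosecretory protein precursor, was bright throughout and rose from 2.44, 2.51 and 2.73 to 4.08, 3.87 and 4.06, 2.72-fold (log2 1.45 ± 0.16, adjusted p = 0.00856). Without W15 replicate 1 or 2 its adjusted p was 0.0647 or 0.0639.

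Ptgs2, the inducible cyclooxygenase, went from -5.80, -5.83 and -5.68 to -4.67, -4.48 and -4.53, a rise of 1.21 ± 0.15 (adjusted p = 0.0168). Its signal was low, though its probe stood well above background on all arrays, and normexp correction took the difference to -0.05. The call was also lost without any W15 array or W45 replicate 2 (adjusted p 0.0505 to 0.110). Crh, the peptide that drives the stress axis, was the called gene that did not pass against TTX: it read -3.97, -4.40 and -4.12 in TTX, -4.59, -4.77 and -4.19 at 15 min, and -3.03, -3.19 and -3.34 at 45 min. Its call (1.33 ± 0.18, adjusted p = 0.0349) was lost without any TTX array, W15 replicate 1 or 2, or W45 replicate 2 (adjusted p 0.0647 to 0.197). Homer1, a postsynaptic scaffold gene with an activity-induced short form, was not called: it read 1.55, 1.35 and 1.58 at 15 min, and 1.57, 1.70 and 1.56 at 45 min, a difference of 0.12 with a 95% interval of -0.15 to 0.39. A probe annotated to a different Homer1 transcript differed by 0.18 and was not called.

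The remaining called genes lay outside these groups. Ppp1r15a, the stress-induced regulator of eIF2alpha dephosphorylation, rose by 1.06 ± 0.15 (adjusted p = 0.0456). It was the called member of 14 stress genes (0.12% of all features rose), whose median difference was 0.04. Ppp1r15a kept its call in 1 of the 9 fits without 1 array (without W45 replicate 1, while the others gave 0.0638 to 0.222). Otud1, a deubiquitinase, rose 1.89-fold, the smallest called rise, and kept its call in 2 of those fits (without W45 replicate 1 or 3; the others gave 0.0598 to 0.167). These 2 genes were picked after their values were seen. A feature annotated as similar to Klf4 rose by 1.96 ± 0.15 (adjusted p = 0.000919). Its probe is placed at chr5:162475179-162475238 of rn3 and the Klf4 probe at chr5:73452107-73452166. Whether it also detects Klf4 messenger RNA was not tested, so its rise may not be separate from that of Klf4. An expressed sequence at chr5:151614984-151615043 on the minus strand of rn3, 1182 bp from the nearest Tent5b probe on the same strand, rose by 1.71 ± 0.18 (adjusted p = 0.00565). A feature annotated as similar to a T-cell activation NFKB-like protein rose by 1.30 ± 0.17 (adjusted p = 0.0279), and lost the call without any TTX array, W15 replicate 1 or 2, or W45 replicate 2 or 3 (adjusted p 0.0548 to 0.164).

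Outside these groups calls were rare. In 15 of the 23 pathway lists no member was called, among them early NF-kB genes, heat shock genes, clock genes, glutamate and GABA receptors, sodium, potassium and calcium channels, vesicle release, ribosomal proteins and oxidative phosphorylation. Their medians ran from -0.04 to 0.15, and of 280 memberships, some shared between lists, 6 were higher and 2 lower at an unadjusted p under 0.05 in limma, against 2.68% and 3.98% of all features. The largest differences among them were Per1 (0.98, adjusted p = 0.479), Rab3a (-0.73), Sv2b (-0.69), Birc3 (0.65), Slc2a3 (0.65) and Scn9a (-0.61). Of all features, 48.8% had a 95% interval wholly inside a 1.5-fold change, so for the other features a change of that size could not be told from none. The 10 lists of cell type markers held no call, with medians from -0.11 to 0.21 and 5 of 71 markers higher and 1 lower at an unadjusted p under 0.05 (2.68% and 3.98% of all features).

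**Figure D3:**
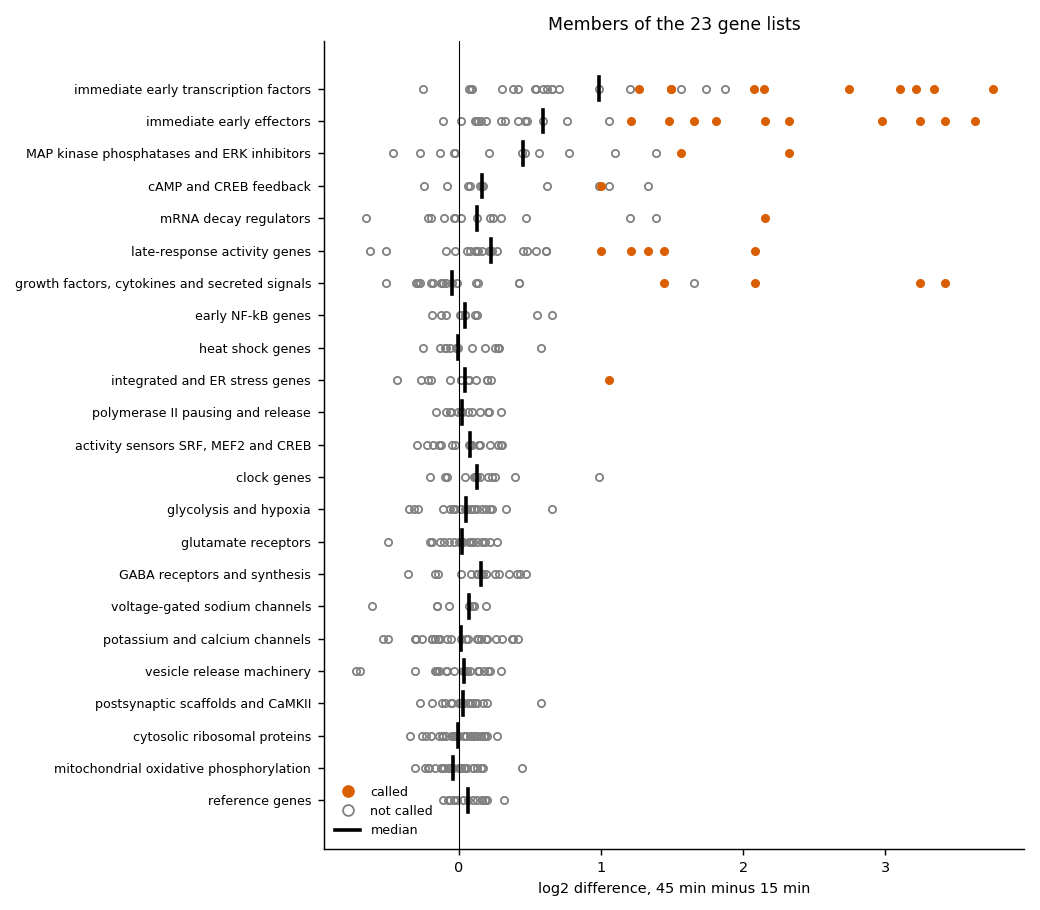
Log2 difference between 45 and 15 min for each tested member of the 23 gene lists. Filled points were called, open points were not, and bars are list medians; the called points sit in the top lists and in the stress list, where Ppp1r15a stands alone. Genes that belong to several lists appear in each.

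Promoter letters of the climbing genes were read from RefSeq promoters of the GRCr8 build, 250 bases before to 50 after each gene's start, which 25 of the 28 genes with a symbol had. The full CRE, TGACGTCA, occurred on either strand in 6 of the 25 (24%: Btg2, Ch25h, Dusp1, Ier2, Ppp1r15a and Vgf), against 2.99% of the 10034 tested genes with a promoter and 2.0% of all 27457. Its first 5 letters alone, TGACG, which every full CRE contains, occurred in 18 (72%) against 31.0% of tested genes. The CArG box occurred in 3 (12%: Dusp5, Egr1 and Egr2) against 1.34%. TATAAA occurred in 8 (32%) against 8.35%, the AP-1 site TGAGTCA in 1 (Ppp1r15a) against 3.75%, and the EGR site GCGTGGGCG in none against 1.06%. A match describes letters in this window and is not evidence of binding.

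Promoters of 4 genes are printed as the 250 bases that end just before the start, in gene orientation, with the full CRE or the CArG boxes in capitals. They pair genes with the full CRE and genes with CArG boxes, whose letters differ between Egr2 and Dusp5. Within each pair the measured gain by 15 min differed, and this difference was not tested.
Vgf, chr12:25277021-25277270, minus strand: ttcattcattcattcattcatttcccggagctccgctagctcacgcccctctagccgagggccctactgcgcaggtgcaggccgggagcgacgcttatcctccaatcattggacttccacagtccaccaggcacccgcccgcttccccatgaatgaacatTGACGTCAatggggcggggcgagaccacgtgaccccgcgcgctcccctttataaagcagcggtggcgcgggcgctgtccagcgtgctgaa
Ier2, chr19:40399123-40399372, plus strand: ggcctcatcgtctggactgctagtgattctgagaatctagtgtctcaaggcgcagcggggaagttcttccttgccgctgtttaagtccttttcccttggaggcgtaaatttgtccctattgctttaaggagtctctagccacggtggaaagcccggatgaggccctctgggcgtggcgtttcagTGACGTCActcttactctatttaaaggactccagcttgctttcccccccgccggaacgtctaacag
Egr2, chr20:21054442-21054691, minus strand: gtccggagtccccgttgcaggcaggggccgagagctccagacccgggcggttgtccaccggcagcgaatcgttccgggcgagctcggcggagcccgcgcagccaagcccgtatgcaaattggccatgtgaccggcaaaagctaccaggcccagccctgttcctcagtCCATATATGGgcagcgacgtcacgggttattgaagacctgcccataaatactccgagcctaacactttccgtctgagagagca
Dusp5, chr1:262543524-262543773, plus strand: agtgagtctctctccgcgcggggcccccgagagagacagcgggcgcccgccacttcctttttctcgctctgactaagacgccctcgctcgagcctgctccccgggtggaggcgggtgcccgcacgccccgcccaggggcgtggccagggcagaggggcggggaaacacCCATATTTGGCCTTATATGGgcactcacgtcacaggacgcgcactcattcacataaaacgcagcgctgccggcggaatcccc
The CRE begins 90 bases before the start in Vgf and 66 before it in Ier2. Ier2 had 26.4% of its 45 min gain at 15 min and Vgf none of it. The CArG box begins 83 bases before the start in Egr2, and Dusp5 has 2 adjoining boxes that begin 82 and 72 bases before it. At 15 min Egr2 stood 1.14 log2 units above TTX (adjusted p = 0.183) and Dusp5 0.05.

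The pace of the rise was described as the share of the 45 min gain over TTX, in linear signal of the group means, that was present at 15 min. A gain at constant rate from washout would give 33.3%. The TTX arrays enter this share, and it carries no test. Among the 31 climbing features the median share was 5.08%, 24 had less than 10%, and none reached 33.3%. The W15 and W45 values that made these calls also make up the share, so a large called rise by itself keeps it low. These counts therefore do not test the constant rate. Ier2 (26.4%), Gadd45g (24.9%) and Egr1 (19.2%) were the most advanced, Npas4 (9.68%), Egr4 (8.43%), Egr2 (6.74%) and Arc (5.70%) stood lower, and Nr4a1 had 2.09% and Dusp5 1.62%. The shares of Fos (29.3%) and Junb (25.2%) lay at the advanced end too: although their log2 gain was larger before 15 min, most of the linear signal came after it. From the 3 arrays of slide 1 alone the shares were 19.3% for Fos, 20.4% for Junb, 18.8% for Egr1, 5.42% for Arc and 4.53% for Npas4.

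For 11 climbing features the 95% interval of the difference between 15 min and TTX lay within 1.5-fold: Bdnf, Btg2, Dusp5, Edn1, Klf4, Otud1, Ptgs2, Rgs4, Tiparp, Vgf and the sequence near Tent5b. Edn1 was at or near background in both groups, so its interval says nothing of its level there. The remaining 20 had either begun to rise or had intervals too wide to say. By Euclidean distance of the group means from TTX, the called gene nearest to Arc was Egr4 (0.40 log2 units), followed by Egr1 (1.21), Egr2 (1.21), Ccn1 (1.30) and Nr4a1 (1.67). For Npas4 no distance is given, because its TTX level is only a bound.

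**Figure D4:**
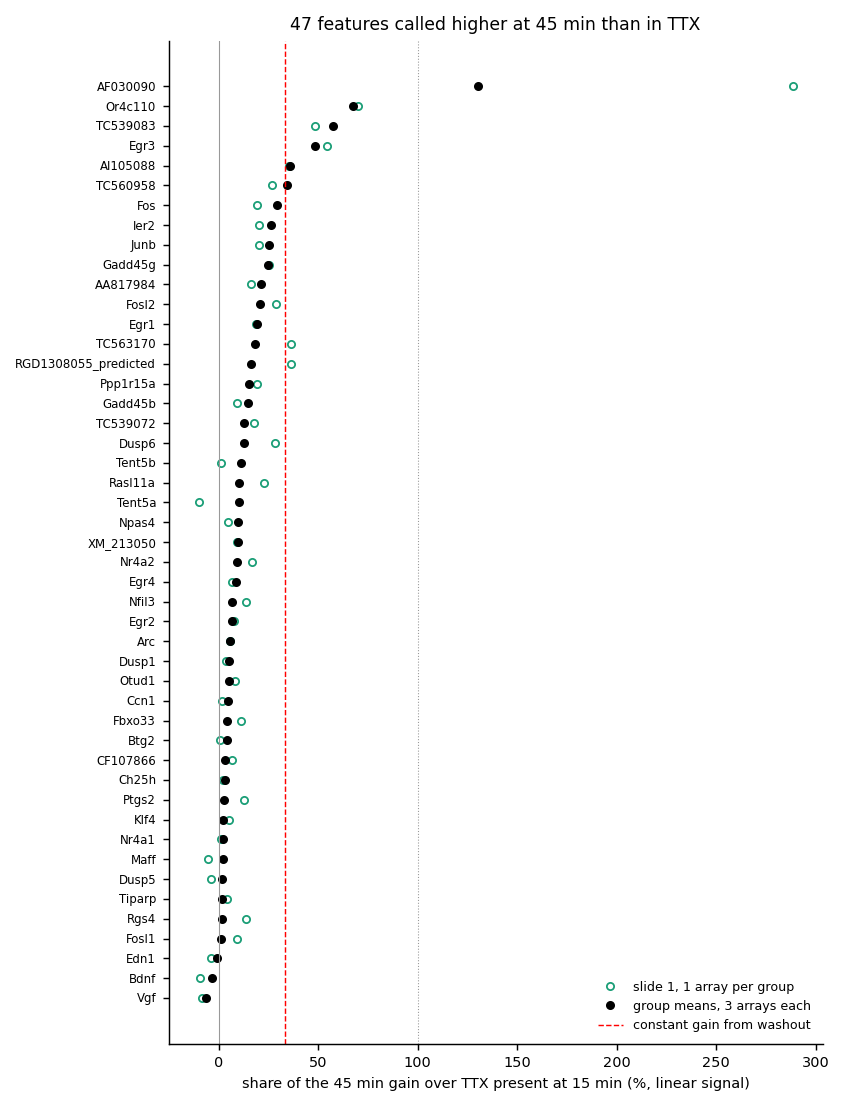
Share of the 45 min gain over TTX present at 15 min, in percent of linear signal, for the 47 features called higher at 45 min than in TTX. Filled points are group means of 3 arrays, open points the single arrays of slide 1, and the dashed line marks a constant gain from washout (33.3%); the filled points of 41 features lie below it.

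Few genes could be sorted into plateau or turn-back. Against TTX, 6 genes were called higher at 15 min (0.0233%): Npas4, Fos, Junb, Egr1, Egr4 and Gadd45g. Of these, Npas4, Egr1, Egr4 and Gadd45g were called again between 15 and 45 min, Fos and Junb were undetermined, and none met the rule for a plateau or was called lower. The W15 arrays enter both steps with opposite sign, which ties the 2 differences of a gene together.

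Of the 47 features called higher at 45 min than in TTX (0.182%), 6 had more than 33.3% of the gain at 15 min, all picked after their values were seen. They were Egr3 (48.6%), the olfactory receptor gene Or4c110 (67.4%, near background), ania-5 (130%) and 3 sequences or tag clusters with no symbol (34.4, 35.9 and 57.6%). The tag cluster with 34.4% lies at chr15:50497869-50497928, on the same strand as the Egr3 probe at chr15:50494763-50494822. It was far brighter than that probe and differed by 0.91 between 15 and 45 min (95% interval 0.36 to 1.46, not called). Whether it belongs to Egr3 was not tested. Ania-5, an activity-induced transcript matched by accession at chr2:23505728-23505787 on the plus strand of rn3, had the largest share. It read -6.06, -6.08 and -6.40 in TTX, -3.16, -3.07 and -3.10 at 15 min, and -4.32, -3.70 and -2.31 at 45 min. The 3 W15 arrays were nearly equal, and the W45 arrays lay on both sides of them. The step from TTX to 15 min was 3.07 and was not called (adjusted p = 0.125). The later difference of -0.33 had a 95% interval of -1.26 to 0.60 (adjusted p = 0.900), it was -1.22 on slide 1 and 0.11 on slide 3, and without W45 replicate 1 it was 0.11. Ania-7 (AF050659), on the same strand of the same chromosome, differed by 1.88 between 15 and 45 min (95% interval 0.90 to 2.85) and was not called (adjusted p = 0.376). Ania-8, on that strand and nearer to ania-5, stood 0.77 above TTX at 15 min (95% interval 0.42 to 1.12), also not called. Its later difference was 0.18 (95% interval -0.17 to 0.53).

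At an unadjusted p under 0.05, 665 features were higher at 15 min than in TTX, and 119 of these were then lower and 29 higher at 45 min. The 665 are 2.58% of all features. Between 15 and 45 min, 3.98% of all features were lower and 2.68% higher at the same threshold. Because the steps share the W15 arrays, the later step was also read on other arrays. On slide 1, 251 features were at least 2-fold higher in W15 replicate 3 than in TTX replicate 1 and above background on all W15 arrays. On the same slide, 232 of the 251 were then lower at 45 min (median difference -0.84), and on slide 3, whose W15 arrays entered the choice through the background requirement alone, 98 of the 251 were lower and the median was 0.11. Over all features the median was -0.00 on slide 1 and 0.00 on slide 3. The 251 were picked from 1 array per time, so they need not be genes that had risen at 15 min, and these values neither show nor refute a turn-back.

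**Figure D5:**
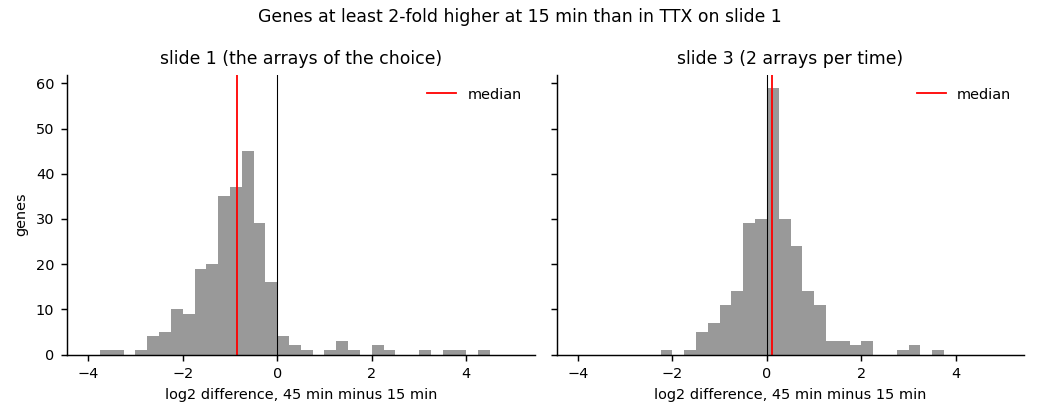
Log2 difference between 45 and 15 min for the 251 features at least 2-fold higher at 15 min than in TTX on slide 1, as histograms of the number of genes. The left panel uses slide 1, whose 15 min array also set the fold of the choice (median -0.84), and the right panel uses the 4 arrays of slide 3, whose 15 min arrays entered the choice through the background requirement alone (median 0.11).

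The 3 features called lower at 45 min carried no gene symbol. A feature annotated as similar to a zinc finger protein, at chr8:43167875-43167934 on the plus strand of rn3, read -1.77, -1.56 and -1.91 at 15 min and -2.97, -3.29 and -3.78 at 45 min. It fell by 1.60 on the log2 scale (SE 0.21, adjusted p = 0.0279), whereas the Zfp202 probe 5056 bp away differed by -0.09. A tag cluster at chr7:38252945-38253004 on the minus strand went from -3.38, -3.42 and -3.64 to -4.90, -4.86 and -4.59 and fell by 1.30 (SE 0.15, adjusted p = 0.01). An expressed sequence at chr11:82803773-82803832 on the minus strand fell by 1.24 (SE 0.16, adjusted p = 0.025). In all 3 the W45 arrays lay below every W15 array. At least 1 left-out array ended each call: without W15 replicate 1, W15 replicate 2 or W45 replicate 2 none of the features tested was called lower (unadjusted p under 0.05 in 792, 571 and 972), without TTX replicate 1 there was 1, without W45 replicate 3 there were 31 and without W45 replicate 1 there were 128.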

How the data were processed

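Per the file headers, each scanner file holds Cy3 spot intensities of an Agilent rat array (design 014879, probe positions on rn3) read with Feature Extraction 9.5.3.1; the submitters' processing notes name 9.5. The deposited table of the series held the same intensity values. From the processed intensity the log2 minus the array's 75th percentile was taken, without the 1639 control spots and with outlier spots missing. Probes had to be well above background on every array of some group, and the brightest of 30321 kept probes stood for a gene. Probes were named through RefSeq of GRCr8 (10735 of 41012 by accession, 5577 by symbol, 83 by other accession, 3706 by synonym, 20911 left as in the files).

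All 9 arrays were fitted with limma 3.58.1 (R 4.3.3, data.table, version 1.17.8). The model gave each group a mean, and its moderated test was two-sided. Calls are Benjamini-Hochberg adjusted p values under 0.05, adjusted over 25785 features. Intervals are 95%. A climb is a call upward between 15 and 45 min, and a plateau is a call at 15 min against TTX with the later interval inside 1.5-fold. In data simulated for this comparison over 25785 genes, 50 of 100 genes changed 2-fold and 84 of 100 changed 4-fold were recovered, with 14 false calls. The simulated noise was independent, with the same spread of a gene in all groups and no slide or replicate effects. In the real data W45 arrays varied more than W15 arrays, so the simulation does not give the error rate of the calls here.

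The groups, gene lists, motifs and naming rule were chosen with earlier results of these data known. The text names the 24 called genes with a symbol that rose most, fixed activity genes, genes called at 15 min, up to 4 members per list, and up to 6 called features without a symbol; others are said to have been picked after their values were seen. Array barcodes gave the slides. Figures used matplotlib 3.10.9 and pandas 2.3.3 (Python 3.11.15).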

Additional observations from a re-analysis of the deposited data

How the results depend on the processing

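The number of features higher and lower at 45 min was 31 and 3. It became 15 and 0 with normexp background correction, 19 and 1 with no filter on dim probes, 40 and 5 with trended and robust spread, 19 and 0 with the 6 washed arrays alone, 0 and 0 with slide 3 alone, and 17 and 16 without W45 replicates 2 and 3 (an alternative chosen after seeing the data). At an unadjusted p under 0.05 in limma, 1071 features were lower with normexp, 637 were lower with the 6 washed arrays, and 796 were higher and 1251 lower with slide 3 alone. Leaving out 1 array gave 18 to 57 higher and 0 to 128 lower. Slide as a fixed block gave 23 and 2. The count of genes called at 15 min and again at 45 min was 4, and 2 without W45 replicates 2 and 3. With slide 3 alone it was necessarily 0, since that slide has no TTX array and gave no call; the differences there were 3.04 for Egr4, 2.05 for Egr1, 2.81 for Npas4 and 1.49 for Gadd45g.

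Whether replicate numbers pair the samples is not settled. Deviations of same-numbered W15 and W45 arrays correlated at 0.063, 0.183 and 0.151, of which 1 is under the 0.1 asked for, those of TTX and W15 at 0.29, 0.388 and 0.225, and those of TTX and W45 at 0.256, 0.367 and 0.122. Every W15 and W45 array correlated best with its own number among the other washed arrays, a hint from the data and not from the labels. With a replicate block, 24 features were higher, 23 of them among the 31, and 3 lower.

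Normexp correction turned Ptgs2 (-0.0536), Birc3 (-0.3702), Nfkbiz (-0.1668), Egr3 (-0.1859), Or4c110 (-0.3346) and the sequences AA817984 (-0.1548) and AI105088 (-0.0733); the cause was not tested. Ania-5 turned with slide 3 alone (0.1094) and without W45 replicate 1 (0.1061, against -0.8972 without W45 replicate 3), and Zfp36l1 without W45 replicates 2 and 3 (0.1932). In all settings that tested them, 30 of the 31 rises kept their direction, Ptgs2 under normexp being the exception. Normexp kept 15 of the 31 calls; those lost include dim genes (Edn1, Ch25h, Ptgs2) and bright ones (Ier2, Vgf, Rgs4).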
